A study of Mus musculus with 20 samples.

Results

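The Cyp2a cytochromes P450 of the mouse were described here by 4 genes, Cyp2a4, Cyp2a5, Cyp2a12 and Cyp2a22, taken by their symbols from 36106 genes of a liver RNA sequencing table. All 4 were found and all 4 passed the filter on low counts that 16164 genes passed. The livers came from male mice, either orchiectomized, that is without testes and so without most of their testosterone, or given a sham operation. For 2 weeks the animals breathed normal air (normoxia) or air whose oxygen fell again and again (intermittent hypoxia), a model of sleep apnoea. Crossing both factors gave 4 groups. Sham_Nx (4 livers) and Sham_IH (5 livers) are the sham operated mice in normoxia and in intermittent hypoxia, and ORX_Nx and ORX_IH (5 livers each) are the orchiectomized mice in the same exposures. The first Sham_Nx mouse was not analysed here. The labels name no strain, age or oxygen level, and no group of females or of mice given testosterone back. Each library was labelled as 1 mouse, and p-values measure the spread between these mice.

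Cytochromes P450 are haem enzymes of the endoplasmic reticulum that oxidize steroids, drugs and toxins with electrons passed on by P450 oxidoreductase. Mouse Cyp2a4 is a steroid hydroxylase known for higher expression in female than in male liver. Cyp2a5 hydroxylates coumarin and oxidizes nicotine and bilirubin, and is induced by many liver toxins. Cyp2a12 is a further hepatic steroid hydroxylase. The sex difference of many liver P450 genes is known to follow the pattern of growth hormone secretion, which androgens shape, through the transcription factor Stat5b.

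The 4 genes lie in the Cyp2 cluster of chromosome 7 and form 2 closely related pairs, which the sequences just before their start sites show. The 250 bases upstream of each gene, from RefSeq on GRCm38.p6 and written 5′ to 3′ along the gene, are printed because the members of a pair are nearly alike in them and yet behaved differently in these livers. Capitals mark substituted or gapped bases within the aligned stretch of a pair (Cyp2a4 with Cyp2a5, Cyp2a12 with Cyp2a22), and bases at a window's end that reach beyond the other window are in lower case. The windows lie at chr7:26306942-26307191, plus strand (Cyp2a4), chr7:26835089-26835338, plus strand (Cyp2a5), chr7:27028840-27029089, plus strand (Cyp2a12) and chr7:26939387-26939636, minus strand (Cyp2a22).
Cyp2a4: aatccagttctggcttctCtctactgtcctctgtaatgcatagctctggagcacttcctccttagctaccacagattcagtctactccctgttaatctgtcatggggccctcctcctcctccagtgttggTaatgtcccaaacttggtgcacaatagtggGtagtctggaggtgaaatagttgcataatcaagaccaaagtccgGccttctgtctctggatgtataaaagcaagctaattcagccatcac
Cyp2a5: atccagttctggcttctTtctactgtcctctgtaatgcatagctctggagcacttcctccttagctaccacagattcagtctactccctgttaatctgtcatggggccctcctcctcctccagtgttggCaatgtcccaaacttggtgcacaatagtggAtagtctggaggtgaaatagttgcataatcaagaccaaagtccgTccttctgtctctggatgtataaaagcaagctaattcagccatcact
Cyp2a12: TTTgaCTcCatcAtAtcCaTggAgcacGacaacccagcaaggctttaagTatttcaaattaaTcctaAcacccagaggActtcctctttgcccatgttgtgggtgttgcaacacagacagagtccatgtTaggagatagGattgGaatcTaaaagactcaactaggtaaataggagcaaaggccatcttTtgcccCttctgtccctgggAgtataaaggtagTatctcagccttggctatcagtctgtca
Cyp2a22: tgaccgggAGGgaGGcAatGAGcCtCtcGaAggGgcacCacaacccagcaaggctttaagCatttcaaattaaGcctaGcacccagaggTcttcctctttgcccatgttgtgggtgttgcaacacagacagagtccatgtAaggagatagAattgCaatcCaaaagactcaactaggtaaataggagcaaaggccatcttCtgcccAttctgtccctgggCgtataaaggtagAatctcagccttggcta

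Over the 249 aligned positions the Cyp2a4 and Cyp2a5 windows differed at 4, an identity of 98.4%. The Cyp2a12 and Cyp2a22 windows were identical at 215 of 242 positions (88.8%), with 24 substitutions and 3 gap positions, many of them at the far end from the start. Across pairs the identity lay between 52.3% and 54.7%. Both strands were searched for motifs that were chosen after the sequences had been seen. TTGCNNAA, a C/EBP motif held by 9.56% of 32851 mouse promoters, occurred 1 time each in Cyp2a4 and Cyp2a5. Cyp2a12 and Cyp2a22 did not hold it. No window held TTCNNNGAA (STAT, 7.02% of promoters), AGAACA (steroid receptors, 16.1%) or AGGTCA (nuclear receptors, 14.0%), which says only that these letters are not in these 250 bases.

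The transcripts are also alike within each pair, which matters for counting. In the GENCODE transcripts 955 of the stretches of 31 bases in Cyp2a4 also occurred in Cyp2a5, 55.9% of those of Cyp2a4 and 44.9% of those of Cyp2a5. Cyp2a12 and Cyp2a22 shared 1191, or 34.5% and 34.6% of theirs, while Cyp2a4 and Cyp2a22 shared 0. Kallisto assigns reads to transcripts by such stretches, so the split of reads within a pair is an estimate and the values of Cyp2a4 against Cyp2a5, and of Cyp2a12 against Cyp2a22, are uncertain to that degree. Cyp2a4 and Cyp2a22 thus each share stretches with the other member of their pair and none with each other.

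Depth lay between 29.3 and 69.6 M estimated counts per library, and the 7 hepatocyte markers in the table summed to 71069 to 117919 counts per 1000000 (CPM) in every library. RNA of other tissues varied between libraries: skeletal muscle markers were highest in ORX_IH mouse 1 (1154 CPM), ORX_IH mouse 2 (685 CPM), Sham_Nx mouse 2 (192 CPM) and Sham_Nx mouse 3 (46.9 CPM), and pancreatic acinar markers in Sham_IH mouse 5 (1163 CPM), Sham_Nx mouse 5 (472 CPM) and ORX_IH mouse 1 (207 CPM). Kupffer cell and macrophage markers were highest in ORX_Nx mouse 4 (1284 CPM) and ORX_Nx mouse 5 (843 CPM), against 196 to 536 CPM in the other libraries. In whole liver, fewer cells of a type and less RNA per cell cannot be told apart.

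**Figure D1:**
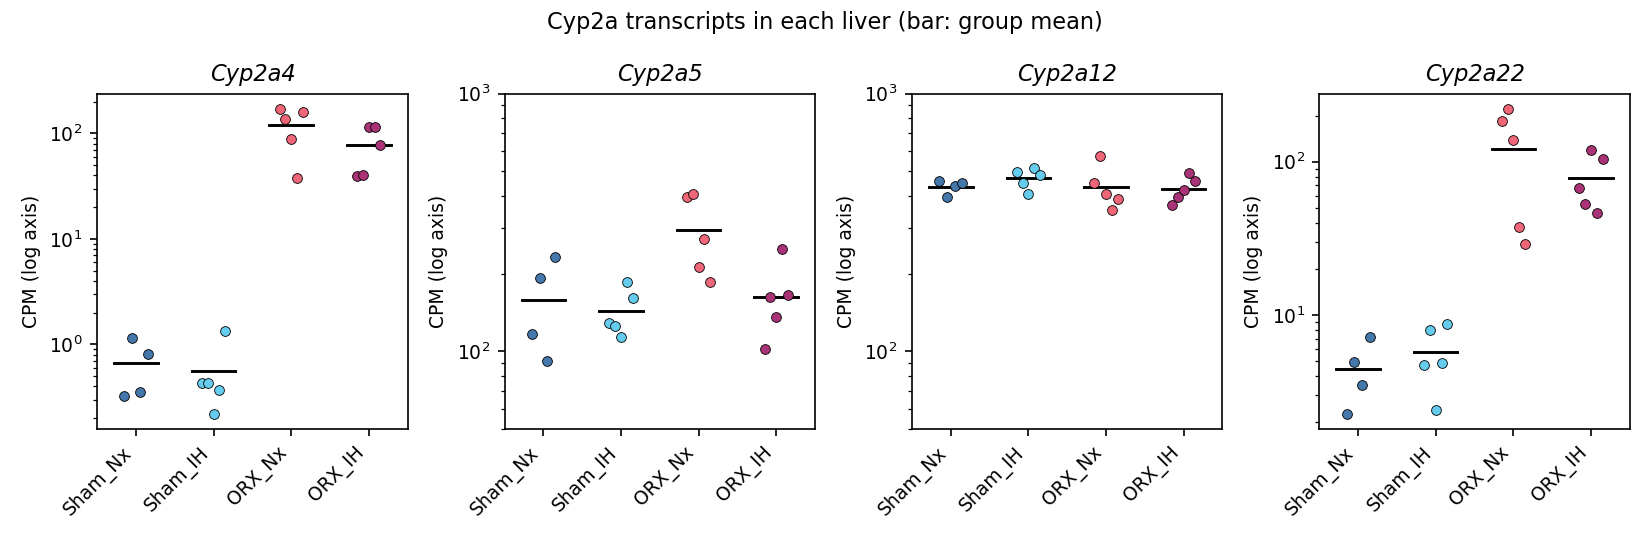
CPM of each Cyp2a gene on a log axis (its range differs between panels), with 1 point per liver in the 4 groups and a bar at the group mean. Every orchiectomized liver lay above every sham liver for Cyp2a4 and Cyp2a22, while Cyp2a12 stayed between 353 and 572 CPM in all 19 livers.

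Cyp2a4 was barely expressed in sham livers and abundant in orchiectomized ones. Sham_Nx mice 2 to 5 had 0.324, 1.16, 0.355 and 0.813 CPM, and Sham_IH mice 1 to 5 had 0.431, 0.428, 0.220, 0.373 and 1.33 CPM. ORX_Nx mice 1 to 5 had 171, 137.8, 88.8, 37.8 and 160 CPM, and ORX_IH mice 1 to 5 had 39.8, 39.9, 115.2, 115.8 and 77.0 CPM. The lowest orchiectomized liver, ORX_Nx mouse 4, was thus far above the highest sham liver, Sham_IH mouse 5. Group means were 0.662 ± 0.398 (SD, n = 4) in Sham_Nx, 0.557 ± 0.442 (n = 5) in Sham_IH, 119 ± 55.3 (n = 5) in ORX_Nx and 77.6 ± 37.8 CPM (n = 5) in ORX_IH.

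Cyp2a22 had the same arrangement from a higher start. Sham_Nx mice 2 to 5 had 2.27, 4.92, 3.49 and 7.21 CPM, and Sham_IH mice 1 to 5 had 4.74, 8.04, 2.42, 4.86 and 8.72 CPM. ORX_Nx mice 1 to 5 had 183, 221, 137.6, 37.4 and 29.2 CPM, and ORX_IH mice 1 to 5 had 67.2, 53.2, 120, 46.1 and 104 CPM. Orchiectomized and sham livers did not overlap, but the ORX_Nx livers split into 3 of 137.6 CPM or more and 2, mice 4 and 5, below all of ORX_IH. Group means were 4.47 ± 2.12 (SD, n = 4) in Sham_Nx, 5.76 ± 2.60 (n = 5) in Sham_IH, 121.7 ± 86.0 (n = 5) in ORX_Nx and 78.0 ± 32.2 CPM (n = 5) in ORX_IH.

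Cyp2a5 was well expressed in every liver. Sham_Nx mice 2 to 5 had 117, 193, 91.6 and 232 CPM, and Sham_IH mice 1 to 5 had 129, 125, 113, 187 and 161 CPM. ORX_Nx mice 1 to 5 had 398, 408, 213, 272 and 186 CPM, and ORX_IH mice 1 to 5 had 102, 162, 136.4, 249 and 165 CPM. The groups overlapped, and the 3 highest livers were all of ORX_Nx. Group means were 158 ± 65.4 (SD, n = 4) in Sham_Nx, 143.1 ± 30.1 (n = 5) in Sham_IH, 295 ± 103 (n = 5) in ORX_Nx and 163 ± 54.4 CPM (n = 5) in ORX_IH.

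Cyp2a12 was the steadiest member. Sham_Nx mice 2 to 5 had 456, 396, 437 and 450 CPM, and Sham_IH mice 1 to 5 had 498, 451, 408, 515 and 485 CPM. ORX_Nx mice 1 to 5 had 452, 572, 406, 353 and 391 CPM, and ORX_IH mice 1 to 5 had 368, 398, 424, 494 and 457 CPM. All groups overlapped, with means of 435 ± 27.1 (SD, n = 4) in Sham_Nx, 471 ± 42.3 (n = 5) in Sham_IH, 435 ± 84.3 (n = 5) in ORX_Nx and 428 ± 49.3 CPM (n = 5) in ORX_IH. From the lowest to the highest liver Cyp2a12 varied 1.62-fold among the 10 orchiectomized mice, where Cyp2a22 varied 7.58-fold, Cyp2a4 4.52-fold and Cyp2a5 4.00-fold.

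**Figure D2:**
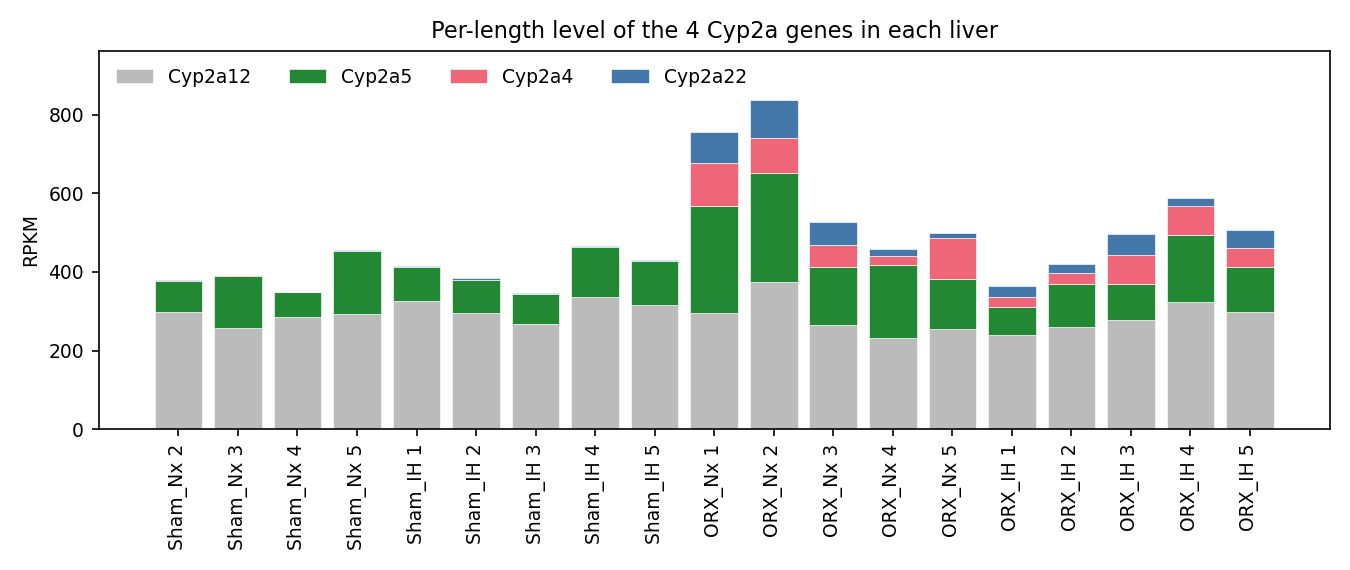
Stacked per-length levels (RPKM) of the 4 genes in each liver, the groups from left to right being Sham_Nx, Sham_IH, ORX_Nx and ORX_IH. Sham livers hold almost only Cyp2a12 and Cyp2a5, and all 4 genes are visible in each orchiectomized liver.

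Levels were compared between genes as reads per kilobase and 1000000 counts (RPKM), computed with the mean transcript length that the deposited table gives. In sham livers the order was Cyp2a12, Cyp2a5, Cyp2a22 and Cyp2a4, with mean RPKM of 284 ± 17.7, 108 ± 44.8, 1.94 ± 0.923 and 0.427 ± 0.257 in Sham_Nx (SD, n = 4), and the same order held in every sham liver. In ORX_Nx the means were 284 ± 55.0 for Cyp2a12, 202 ± 70.6 for Cyp2a5, 76.8 ± 35.7 for Cyp2a4 and 52.9 ± 37.4 for Cyp2a22 (SD, n = 5), and the last pair of neighbours lay within each other's spread. In ORX_IH they were 280 ± 32.2, 111 ± 37.2, 50.04 ± 24.4 and 33.9 ± 14.0 (n = 5), again with Cyp2a4 and Cyp2a22 within their spread. The RPKM of the 4 genes summed to 395 ± 44.8 in Sham_Nx, 409 ± 46.1 in Sham_IH, 616 ± 170 in ORX_Nx and 475 ± 85.6 in ORX_IH. Cyp2a12 made up 72.6% ± 8.80 of that sum in Sham_Nx, 75.5% ± 2.63 in Sham_IH, 47.1% ± 5.27 in ORX_Nx and 59.5% ± 4.52 in ORX_IH. Within each exposure the share did not overlap between operations: it was 64.4% or more in Sham_Nx and at most 51.3% in ORX_Nx, and 72.1% or more in Sham_IH and at most 65.8% in ORX_IH.

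Orchiectomy in normoxia, ORX_Nx against Sham_Nx, asks what loss of the testes does without the hypoxic exposure. Cyp2a4, Cyp2a22 and Cyp2a5 rose and Cyp2a12 did not pass the test, with edgeR's quasi-likelihood test and Benjamini-Hochberg adjustment over all 16164 genes at an adjusted p under 0.05. Among all genes tested, 7.88% rose and 6.46% fell by that rule. Cyp2a4 rose 179-fold (95% interval 72.5 to 441), a log2 fold change of 7.48 ± 0.62 (SE, adjusted p = 1.28e-06). Cyp2a22 rose 27.1-fold (11.0 to 67.0), or 4.76 ± 0.62 on the log2 scale (adjusted p = 9.47e-05). The groups did not overlap for either gene, as was so for 12.3% of genes, and the exact two-sided permutation p of each was 0.0159, the smallest that 4 against 5 mice allow. In the same comparison 11 of 12 Kupffer and macrophage markers (median log2 fold change 1.09), 3 of 12 lymphocyte, 4 of 10 stellate cell and fibroblast, 2 of 6 cholangiocyte and 1 of 3 neutrophil markers rose, and 3 of 15 skeletal muscle markers fell. Without the 4 libraries highest in muscle markers 0 of 12 Kupffer and macrophage markers and 1 of 12 lymphocyte markers rose, and Cyp2a4 and Cyp2a22 had log2 fold changes of 7.67 and 4.51. That smaller fit called 422 genes of all in this comparison, against 2319. The part of these cell types in the result was not tested. ORX_Nx mice 4 and 5, the highest in Kupffer and macrophage markers, had the lowest Cyp2a22 of their group, and mouse 4 the lowest Cyp2a4. Mouse 5 had 160 CPM of Cyp2a4, above its group mean of 119 CPM. Without both mice 0 of 12 Kupffer and macrophage markers rose, and the log2 fold changes were 7.64 for Cyp2a4 and 5.33 for Cyp2a22.

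Cyp2a5 rose 1.87-fold in normoxia (95% interval 1.21 to 2.87), a log2 fold change of 0.90 ± 0.30 that lay just inside the threshold (edgeR adjusted p = 0.0495). All 5 ORX_Nx livers lay above the Sham_Nx mean, but the groups overlapped and the exact two-sided permutation p was 0.0794. The call did not hold in 20 of 33 alternatives, among them limma-voom (0.92, adjusted p = 0.0508), the fit without a count filter (0.89, adjusted p = 0.0612) and the fit without the 4 libraries highest in muscle markers (0.86, adjusted p = 0.202). Leaving out any 1 library gave 0.71 to 1.14, adjusted p 0.0338 to 0.156, and the call held in 5 of the 19 such fits, those without Sham_Nx mouse 5, ORX_Nx mouse 3, ORX_Nx mouse 5, ORX_IH mouse 1 or ORX_IH mouse 4. The rise of Cyp2a5 is therefore reported as borderline. Cyp2a12 had a log2 fold change of 0.00 ± 0.12 (adjusted p = 0.999), with an interval from -0.25 to 0.25.

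Under intermittent hypoxia, ORX_IH against Sham_IH, Cyp2a4 and Cyp2a22 rose, and Cyp2a5 and Cyp2a12 did not pass the test. Here 1.31% of genes rose and 1.57% fell. Skeletal muscle markers rose in the same comparison (11 of 15, median log2 fold change 8.19), as did 3 of 12 lymphocyte markers, and their part in the result was not tested. Cyp2a4 rose 131-fold (95% interval 57.6 to 299), or 7.04 ± 0.57 on the log2 scale (edgeR adjusted p = 1.60e-06). Cyp2a22 rose 13.4-fold (6.09 to 29.3), or 3.74 ± 0.54 (edgeR adjusted p = 0.000496). For both genes the groups did not overlap, as was so for 5.85% of genes, with an exact two-sided permutation p of 0.00794, the smallest that 5 against 5 mice allow. The 2 lowest Cyp2a4 values of ORX_IH were those of mice 1 and 2, the highest in skeletal muscle markers, and without the 4 libraries highest in those markers the log2 fold change of Cyp2a4 was 7.45 and that of Cyp2a22 was 3.95. Without Sham_IH mouse 5, the sham liver with the most Cyp2a4, that of Cyp2a4 was 7.72. Cyp2a5 had a log2 fold change of 0.19 ± 0.28 (edgeR adjusted p = 0.779), with an interval from -0.39 to 0.76. Cyp2a12 had -0.14 ± 0.11 (edgeR adjusted p = 0.560).

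**Figure D3:**
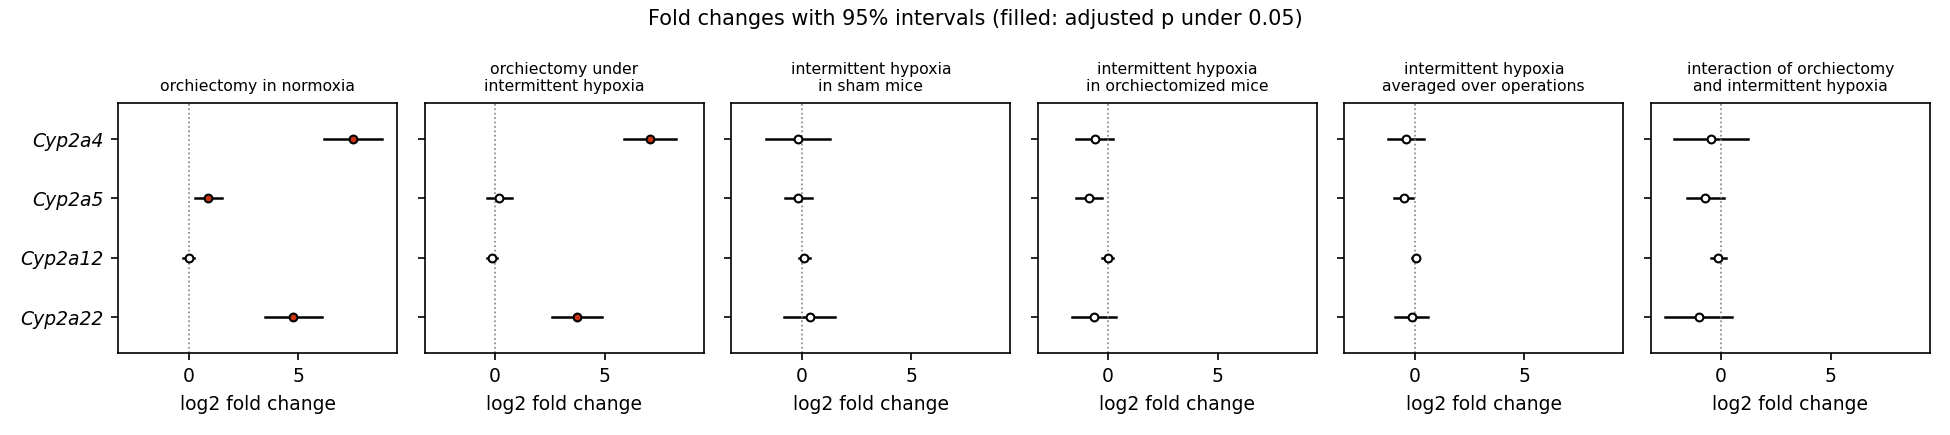
Log2 fold changes of the 4 genes from edgeR with 95% intervals in the 6 comparisons, filled where the adjusted p was under 0.05. The filled points are Cyp2a4 and Cyp2a22 after orchiectomy in both exposures and Cyp2a5 after orchiectomy in normoxia.

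Cyp2a4 and Cyp2a5 differ in few bases, so their counts were also read as a pair. Cyp2a4 made up 0.401% ± 0.138 of the pair's counts in Sham_Nx (SD, n = 4), 0.378% ± 0.258 in Sham_IH (n = 5), 28.6% ± 12.2 in ORX_Nx (n = 5) and 31.4% ± 9.40 in ORX_IH (n = 5). The share ran from 0.200% to 0.823% over the sham livers and from 12.2% (ORX_Nx mouse 4) to 46.3% (ORX_Nx mouse 5) over the orchiectomized livers. Summed into 1 row, the pair gives a value that does not depend on how reads were split between Cyp2a4 and Cyp2a5. The summed row had a log2 fold change of 1.38 ± 0.30 after orchiectomy in normoxia (edgeR adjusted p = 0.00623). Under intermittent hypoxia it had 0.74 ± 0.27 and did not pass the test (edgeR adjusted p = 0.157). Cyp2a12 and Cyp2a22 were summed in the same way, a choice made after seeing the data. That pair, in which Cyp2a12 is the more abundant gene in every liver, had 0.34 ± 0.16 in normoxia (edgeR adjusted p = 0.151) and 0.085 ± 0.15 under intermittent hypoxia (edgeR adjusted p = 0.815), and passed in neither. The fold changes of Cyp2a4 and of Cyp2a22 alone both rest on kallisto's split of reads within their pairs. Each sum also holds a partner that was more abundant in sham livers, so its smaller fold change does not test that split.

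Cyp2a4 and Cyp2a22 rose together from sham to orchiectomized livers but were not locked to each other. In 8 of the 10 orchiectomized livers the ratio of Cyp2a4 to Cyp2a22 in RPKM lay between 0.880 and 1.502. ORX_Nx mouse 5 had a ratio of 8.12 and ORX_IH mouse 4 a ratio of 3.73, each with high Cyp2a4 and the lowest Cyp2a22 of its group. In ORX_Nx mouse 5 the hepatocyte markers (71069 CPM) and pericentral hepatocyte markers (5067 CPM) were the lowest of all 19 livers. Its periportal hepatocyte markers (14271.5 CPM) were the highest of all. ORX_IH mouse 4 instead had the highest hepatocyte markers of its group (116497 CPM), with 8765 CPM of pericentral markers, the lowest of its group, and 13538 CPM of periportal markers. The part of these markers in the ratio was not tested. In sham livers the ratio was 0.0791 to 0.349.

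**Figure D4:**
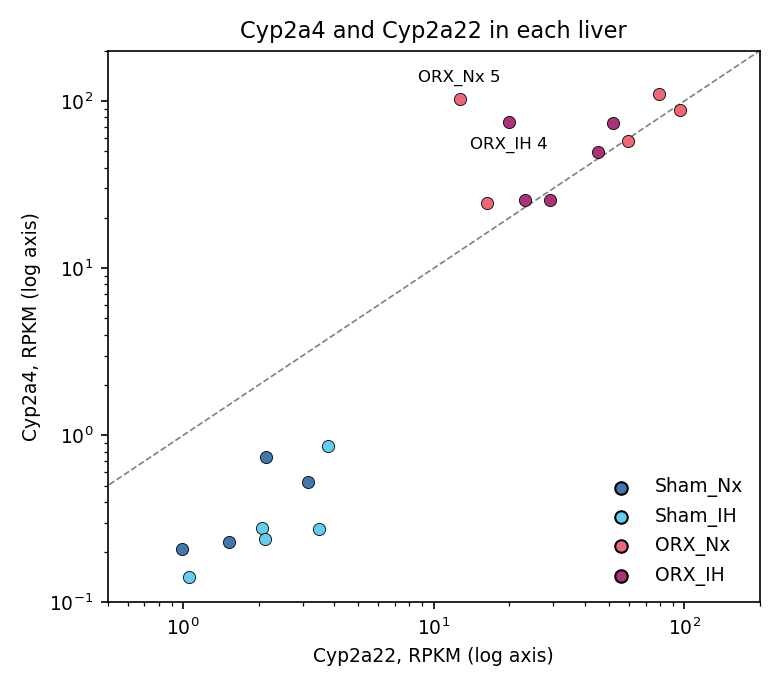
Cyp2a4 against Cyp2a22 in RPKM on log axes, 1 point per liver, with a dashed line of equal levels. Orchiectomized livers lie at upper right near the line except ORX_Nx mouse 5 and ORX_IH mouse 4, and all sham livers lie below it.

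Intermittent hypoxia was compared with normoxia after each operation, and in sham mice none of the 4 genes passed the test. There 0.099% of all genes rose, 0.204% fell and 8.51% did not overlap between the groups. The log2 fold changes of Sham_IH over Sham_Nx were -0.17 ± 0.69 for Cyp2a4, -0.15 ± 0.29 for Cyp2a5, 0.12 ± 0.12 for Cyp2a12 and 0.38 ± 0.55 for Cyp2a22 (SE). The intervals leave room for a change of Cyp2a4 from -1.62 to 1.28 and of Cyp2a12 from -0.13 to 0.37, so a change of Cyp2a4 was much less well bounded at its low sham level.

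In orchiectomized mice, ORX_IH against ORX_Nx, none of the 4 genes passed the test either, and 0.0186% of all genes rose, 0.0557% fell and 2.3% did not overlap. Cyp2a5 had the lowest value of the 4, a log2 fold change of -0.86 ± 0.28, which is 0.551 times the ORX_Nx level (95% interval 0.369 to 0.824). Its unadjusted p was 0.00599 and its edgeR adjusted p 0.124, and the exact two-sided permutation p was 0.0397. Cyp2a5 overlapped between the groups, with 4 of the 5 ORX_IH livers at 165 CPM or less and all 5 ORX_Nx livers at 186 CPM or more. Cyp2a4 had -0.62 ± 0.40, Cyp2a22 -0.64 ± 0.48 and Cyp2a12 -0.02 ± 0.11 on the log2 scale, and the summed row of Cyp2a4 and Cyp2a5 had -0.79 ± 0.27. This comparison and orchiectomy in normoxia share the ORX_Nx livers, so a high Cyp2a5 in those enters both. The 2 livers with the lowest CPM of Cyp2a4 in ORX_IH were the 2 highest in skeletal muscle markers, and without the 4 libraries highest in those markers the log2 fold changes were -0.21 for Cyp2a4 and -0.68 for Cyp2a5.

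Averaged over both operations, the effect of intermittent hypoxia was -0.50 ± 0.20 for Cyp2a5 on the log2 scale (edgeR adjusted p = 0.149), -0.39 ± 0.40 for Cyp2a4, 0.05 ± 0.08 for Cyp2a12 and -0.13 ± 0.36 for Cyp2a22. None passed the test, where 1.96% of all genes rose and 2.57% fell. The interaction, whether the effect of orchiectomy differed between exposures, was -0.45 ± 0.80 for Cyp2a4, -0.71 ± 0.40 for Cyp2a5, -0.14 ± 0.16 for Cyp2a12 and -1.02 ± 0.73 for Cyp2a22. No member passed, and in edgeR 0.0% of genes rose and 0.0% fell, with 1025 genes at an unadjusted p under 0.05 and 63 called by DESeq2. Cyp2a5 passed the test of orchiectomy in normoxia and not under intermittent hypoxia, but that difference itself was not past the threshold (edgeR adjusted p = 0.799).

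The authors' deposited table ranks the members alike by its F-statistic for any difference among groups. In the authors' deposited table Cyp2a4 has F = 113 and q = 2.07e-06, and Cyp2a22 has F = 31.9 and q = 0.0004. Cyp2a5 has F = 4.56 with p = 0.0184 and q = 0.175 in the authors' deposited table, and Cyp2a12 has F = 0.568 and q = 0.745.

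The neighbours of the 4 genes on chromosome 7 were then set out in the gene order of RefSeq. Cyp2a4 lies apart from the others, between the long noncoding gene Gm42375 and Nlrp9c, with Cyp2b10, Cyp2b13 and Cyp2b9 before it. Further along, Cyp2g1 is followed by Cyp2a5, then, after LOC115486453 and Api5-ps, by Cyp2a22, the pseudogene Cyp2a21-ps and Cyp2a12. Cyp2a12, which did not pass, and Cyp2a22, which rose, are thus separated by 1 pseudogene. Of 9 other P450 genes of the cluster 8 could be tested: 3 rose and 1 fell after orchiectomy in normoxia, and 3 rose and 0 fell under intermittent hypoxia, with median log2 fold changes of 1.196 and 0.88 against 0.013 and -0.0043 over all genes. By the same rule 7.88% of all genes rose and 6.46% fell in normoxia, and 1.31% rose and 1.57% fell under intermittent hypoxia.

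Cyp2b9 and Cyp2b13, P450 genes known for higher expression in female mouse liver, rose in both exposures. Cyp2b13 had 9.62 ± 1.03 in normoxia and 9.45 ± 0.99 under intermittent hypoxia (log2 ± SE, edgeR adjusted p = 1.07e-05 and 1.499e-05), and Cyp2b9 had 8.58 ± 1.05 and 5.44 ± 0.81 (adjusted p = 4.88e-05 and 0.000594). The means of Cyp2b13 were 0.098 CPM in Sham_Nx and 0.061 CPM in Sham_IH, so the size of its fold changes rests on very few sham counts. Cyp2b10, the classical target of the drug receptor Car, rose under intermittent hypoxia (2.33 ± 0.52, edgeR adjusted p = 0.0187). Cyp2g1, known as an olfactory P450, rose in normoxia from a mean of 0.219 to 1.07 CPM (2.29 ± 0.54, edgeR adjusted p = 0.0108). Cyp2f2, which bioactivates naphthalene, fell by 0.88 ± 0.19 on the log2 scale in normoxia (edgeR adjusted p = 0.00636). Its call was lost without the 4 libraries highest in muscle markers, a fit that called 422 genes in normoxia against 2319. The pseudogene Cyp2a21-ps, which shares 497 stretches of 31 bases with Cyp2a5 (34.5% of its own), had group means of 0.0733 to 0.222 CPM and was not called.

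**Figure D5:**
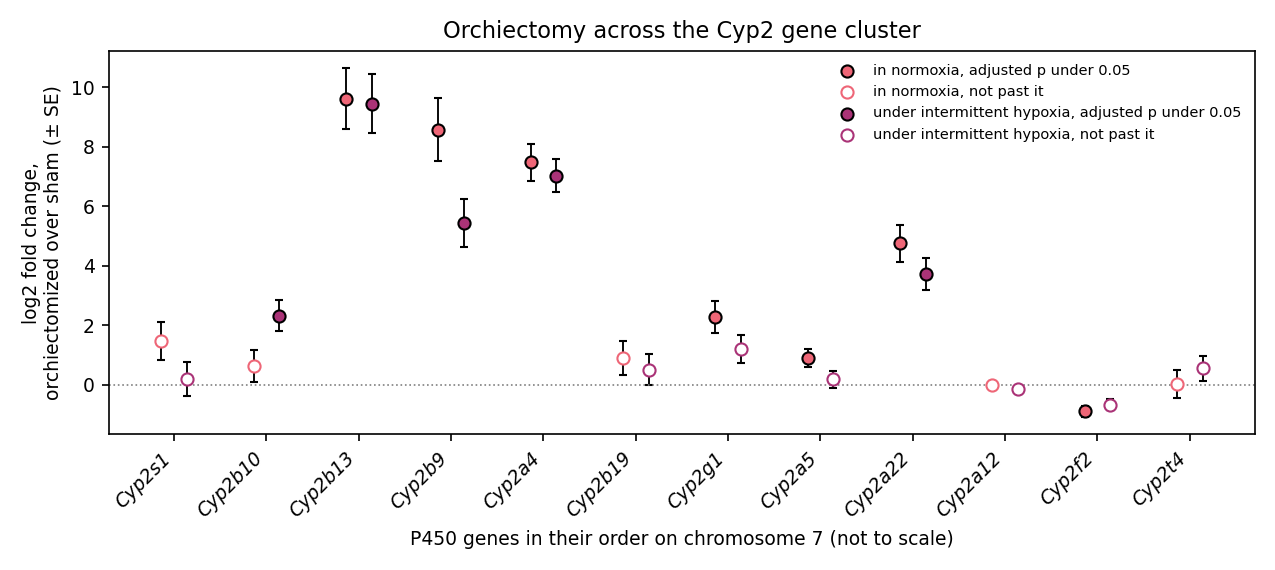
Log2 fold change of orchiectomized over sham mice (± SE, edgeR) for the P450 genes of the Cyp2 cluster that passed the count filter, in gene order along the chromosome and not to scale, in normoxia and under intermittent hypoxia. Cyp2b13, Cyp2b9, Cyp2a4 and Cyp2a22 are filled in both exposures, with genes that did not pass between and beside them.

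The genes known to govern Cyp2a expression were taken as lists. Of 22 transcription factors and coregulators known for xenobiotic response or liver identity, 1 rose after orchiectomy in normoxia. It was Ppargc1a, a coactivator of energy metabolism, which rose by 0.82 ± 0.17 on the log2 scale (edgeR adjusted p = 0.00544). Under intermittent hypoxia orchiectomy changed 0 of the 22. Among all genes tested, 7.88% rose and 6.46% fell in normoxia, and 1.31% rose and 1.57% fell under intermittent hypoxia. The median log2 fold changes of the list were -0.0003 and 0.014, beside 0.013 and -0.0043 over all genes. In intermittent hypoxia averaged over operations Nfe2l2, which encodes the oxidative stress factor Nrf2, fell by 0.20 ± 0.04 (edgeR adjusted p = 0.00898), 1 call of 22. Of all genes 2.57% fell in that comparison. Without the 4 libraries highest in muscle markers the call of Nfe2l2 was lost, in a fit that called 8 genes of all there against 733.

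Among 14 genes of growth hormone, STAT5 and sex steroid signalling, 4 rose and 1 fell after orchiectomy in normoxia, and 3 rose and 2 fell under intermittent hypoxia. Of all genes 7.88% rose and 6.46% fell in normoxia, and 1.31% rose and 1.57% fell under intermittent hypoxia. The median log2 fold changes of the list were 0.11 and 0.21, beside 0.013 and -0.0043 over all genes. Prlr, the prolactin receptor, rose by 1.01 ± 0.14 and 0.74 ± 0.13 on the log2 scale (edgeR adjusted p = 0.0002 and 0.0044). Cux2, a transcription factor of female liver, rose by 1.52 ± 0.34 and 1.62 ± 0.31 (adjusted p = 0.0084 and 0.0068). Tox rose by 0.85 ± 0.25 and 1.07 ± 0.24 (adjusted p = 0.0326 and 0.0190), and Srd5a1, which converts testosterone to dihydrotestosterone, fell by 1.75 ± 0.22 and 0.89 ± 0.21 (adjusted p = 6.71e-05 and 0.0253). Stat5b rose by 0.43 ± 0.10 in normoxia (edgeR adjusted p = 0.00773). Under intermittent hypoxia Bcl6, a repressor known from male liver, fell by 2.96 ± 0.56 on the log2 scale (edgeR adjusted p = 0.0059). Cux2 also rose in intermittent hypoxia averaged over operations, by 1.46 ± 0.23 (edgeR adjusted p = 0.0033). These counts depended on which livers entered. Without the 4 libraries highest in muscle markers 1 rose and 1 fell in normoxia, and 0 and 0 under intermittent hypoxia. That fit lacks Sham_Nx mice 2 and 3 and ORX_IH mice 1 and 2. It called fewer genes of all, 422 against 2319 in normoxia and 107 against 465 under intermittent hypoxia, so losing calls was not particular to this list.

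Further lists were read beside the shares of all genes called after orchiectomy. In normoxia 7.88% of all genes rose and 6.46% fell, and under intermittent hypoxia 1.31% rose and 1.57% fell. Of 6 genes of electron transfer, 0 rose and 0 fell after orchiectomy in either exposure, and Pgrmc2, a haem-binding membrane protein, fell by 0.25 ± 0.05 on the log2 scale in intermittent hypoxia averaged over operations (edgeR adjusted p = 0.0145). Of all genes 2.57% fell in that comparison. The call of Pgrmc2 was lost without the 4 libraries highest in muscle markers, in a fit that called 8 genes of all there against 733. Of 10 genes of haem breakdown and bilirubin clearance, the pathway Cyp2a5 joins as a bilirubin oxidase, 3 rose and 2 fell in normoxia and 2 rose and 1 fell under intermittent hypoxia. Their median log2 fold changes were 0.049 and 0.019, beside 0.013 and -0.0043 over all genes. The organic anion transporter genes Slco1a4 and Slco1a1 moved in opposite directions, Slco1a4 rising by 2.30 ± 0.23 and 1.121 ± 0.21 on the log2 scale. Slco1a1 had log2 fold changes of -4.58 ± 0.63 and -2.40 ± 0.56. Ugt1a1, which conjugates bilirubin, rose by 0.59 ± 0.17 in normoxia (edgeR adjusted p = 0.0280), and Blvrb, a biliverdin reductase, fell by 0.41 ± 0.11 (adjusted p = 0.0203). In sham mice Slco1a4 rose by 1.46 ± 0.22 with intermittent hypoxia (edgeR adjusted p = 0.0147). Without the 3 libraries highest in pancreatic markers 0 genes of all were called in that comparison, against 49. The loss of the Slco1a4 call was thus not particular to Slco1a4. After orchiectomy 1 of 12 pericentral markers fell and 2 of 11 periportal markers rose in normoxia, and 0 changed under intermittent hypoxia.

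Genes with the pattern most like each member were ranked by the Pearson r of log2 CPM over the 19 livers, which share the step between operations and library depth. The 5 closest to Cyp2a4 were Slc22a26 (r = 0.979), Gm14496 (0.975), Slc22a27 (0.971), Atp23 (0.963) and Nt5e (0.958). With group means removed these were between 0.321 (Slc22a26) and 0.646 (Slc22a27). The 5 closest to Cyp2a22 were Vldlr (0.982), Slc22a27 (0.975), Gm14496 (0.965), Gm29920 (0.961) and Nt5e (0.957), and Vldlr, the very low density lipoprotein receptor gene, kept r = 0.872 with group means removed. Slc22a27, Gm14496 and Nt5e were on both lists. Gm29920, a pseudogene that lies between Cyp2b13 and Cyp2b9, had means of 0 CPM in both sham groups. After orchiectomy its means were 0.598 CPM in ORX_Nx and 0.555 CPM in ORX_IH.

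Cyp2a5 and Cyp2a12 had other neighbours in pattern. Cyp2a5 was closest to Cpq (r = 0.892), Rnf13 (0.887), Serpina6 (0.886), Rnaset2b (0.876) and Hcn3 (0.852), and with group means removed Cpq kept 0.83 and Serpina6, which encodes the corticosteroid-binding globulin, 0.804. Serpina6 rose after orchiectomy in normoxia, from a mean of 81.1 to 277 CPM (log2 1.77 ± 0.33, edgeR adjusted p = 0.0025). Cyp2a12 was closest to Dera (0.806), Cnih1 (0.798), Aco1 (0.784), Hdac3 (0.781) and Cenpx (0.773). Between members r was 0.947 for Cyp2a4 with Cyp2a22 over the 19 livers and -0.16 for Cyp2a4 with Cyp2a12. With group means removed all 6 pairs of members had r between 0.446 and 0.569.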

How the data were processed

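Liver RNA of 20 male mice in 4 groups is described in the labels, and the tables held 19 of them. Per the labels' protocols, poly(A) RNA was made into strand-specific libraries. Per the submitters' processing notes, kallisto 0.46.1 and GRCm39 were used for quantification, besides MultiQC 1.12, FastQC 0.11.9, fastp 0.23.2 and bcl2fastq 2.20. The authors deposited estimated counts per gene, of which 27.5% were not whole and were rounded here. For each gene the authors also deposited log2 expression, an F score, a p-value and a q-value. The sources used here do not give the normalization of the log2 values, which differed from log2 RPKM computed here by a median of 0.0772 over 16125 genes.

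Genes were kept by filterByExpr (minimum count 10), scaled by TMM and fitted in edgeR 4.0.16 (R 4.3.3) over the 4 groups in 1 model. Called means a Benjamini-Hochberg adjusted p under 0.05 over all genes. SEs are the fold change divided by the root of F, and 95% intervals from the t quantile. CPM and RPKM use TMM library sizes. Permutation tests were exact, on log2 CPM (prior count 1). Alternatives were other scalings, no filter, left-out libraries, a replicate block, limma 3.58.1 and DESeq2 1.42.0. Fits were tested on simulated data. Replicate libraries differed by a chi-square per degree of freedom of 19.7 to 191, so each counted as 1 sample.

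The members, the 17 gene lists and the tests were chosen with earlier results of these data known. Named were the members, the 5 genes most like each, at most 4 called genes per list and comparison, and gene neighbours. Some results on the lists and motifs are not reported here. RefSeq upstream sequences matched all 4 members. Their build, GRCm38.p6, is older than the authors', so it served for sequence and gene order only. The sources used here do not name the transcript set behind the authors' kallisto counts. The shares of stretches in the GENCODE transcripts may therefore differ from those of that set. Wilson and counting limits cover counting error only.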

Additional observations from a re-analysis of the deposited data

Results flagged for a closer look

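Sham_IH mouse 5 stood apart from the other Sham_IH livers in Cyp2a4, with 1.33 CPM against 0.220 to 0.431 CPM in the other 4, a gap of 0.810 of the group's range. Its Cyp2a4 share of the Cyp2a4 and Cyp2a5 counts stood apart in the same way, at 0.823% against 0.200% to 0.339%, a gap of 0.776 of the range. From the rounded counts, 75 of 9152, the 95% Wilson interval of that share is 0.654% to 1.03%, for counting error only and given kallisto's split. The same liver was the highest of all in pancreatic acinar markers (1163 CPM), whose part in the value was not tested. The value remained far below the lowest orchiectomized liver (37.8 CPM). These were 2 flags in 24 groups of values examined, and chance flags about 1 in 20, while both flags rest on the same count of Cyp2a4.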

How the results depend on the processing

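Of 784 alternative values of the 24 member results, 725 kept their direction and their side of the threshold, 23 lost the call and 36 changed sign. The rises of Cyp2a4 and Cyp2a22 after orchiectomy held in every alternative run except in 3 sums. Cyp2a4 under intermittent hypoxia lost its call when summed with Cyp2a5 (0.74 log2, edgeR adjusted p = 0.157), and Cyp2a22 lost its call in both exposures when summed with Cyp2a12, an alternative chosen after seeing the data (0.34 and 0.085). In Sham_Nx the mean of Cyp2a12 was 435 CPM and that of Cyp2a22 4.47 CPM, so the latter sum mostly follows Cyp2a12. Leaving out 1 library gave 7.26 to 7.88 and 6.84 to 7.72 for Cyp2a4 in normoxia and under intermittent hypoxia, and 4.43 to 5.09 and 3.54 to 3.94 for Cyp2a22. Cyp2a5 after orchiectomy in normoxia lost its call with no count filter (0.89), with the compared groups alone (0.89), without the muscle-marker libraries (0.86), in limma-voom (0.92), in limma-trend on the deposited log2 table (0.91) and in 14 of 19 fits that left out 1 library (0.71 to 1.14). The cause was not tested. With the mouse number as a replicate block it was 0.90 (edgeR adjusted p = 0.0978), and the block changed no other member's call. Same-numbered mice of different groups correlated from -0.20 to 0.40, over 0.1 in 5 of 27 pairs. Mice of different number and group correlated from -0.28 to 0.35, over 0.1 in 16 of 108 pairs. The mice numbered 5 are also those outside library numbers 1 to 16.

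Changes of sign were all in values that no fit called. Cyp2a12 after orchiectomy in normoxia was -0.0028 with DESeq2 size factors and in DESeq2, -0.012 with no filter, -0.010 with the compared groups alone, -0.037 without the muscle-marker libraries, -0.017 in limma-voom, -0.031 in limma-trend and -0.12 to 0.067 without 1 library. Summed with Cyp2a22 it was 0.085 after orchiectomy under intermittent hypoxia and -0.0089 for intermittent hypoxia averaged over operations. For Cyp2a5 under intermittent hypoxia, leaving out 1 library gave -0.018 to 0.32 for orchiectomy. For intermittent hypoxia in sham mice Cyp2a5 was 0.041 with library numbers 1 to 16, 0.052 without the pancreas-marker libraries and -0.34 to 0.098 without 1 library, and its sum with Cyp2a4 was 0.038, 0.049 and up to 0.097. Cyp2a4 there was 0.013 without the muscle-marker libraries and -0.85 to 0.22 without 1 library. For intermittent hypoxia in orchiectomized mice Cyp2a12 was 0.083 without the muscle-marker libraries, 0.028 without the pancreas-marker libraries, 0.0045 in limma-trend and -0.089 to 0.096 without 1 library. Averaged over operations, Cyp2a12 was -0.019 without ORX_Nx mice 4 and 5, and Cyp2a22 was 0.062 in limma-voom, 0.019 in limma-trend and -0.26 to 0.032 without 1 library. The interaction of Cyp2a12 was 0.0032 without the muscle-marker libraries, and that of Cyp2a4 was 0.26 with library numbers 1 to 16, 0.29 without the pancreas-marker libraries and -0.84 to 0.24 without 1 library.

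Over the alternatives the count of called genes ranged from 422 to 3078 after orchiectomy in normoxia (2319 in the fit reported) and from 107 to 971 under intermittent hypoxia (465). For intermittent hypoxia it ranged from 0 to 483 in sham mice (49), 0 to 712 in orchiectomized mice (12) and 8 to 1444 averaged over operations (733), and for the interaction from 0 to 63 (0). Without scaling factors the median of all genes moved to 0.14 and 0.13 after orchiectomy in normoxia and under intermittent hypoxia, and 86.4% and 85.5% of called genes were higher, against 54.9% and 45.4% with TMM and 67.1% and 57.2% with upper quartile scaling. Depth limits Cyp2a4 in sham livers, where 8 to 75 counts stand behind each value.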
